A study of Glycine max with 6 samples.

Results

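The genes described here are the 7 cytokinin oxidase genes of soybean (Glycine max) that the study named GmCKX01, GmCKX02, GmCKX12, GmCKX13, GmCKX14, GmCKX15 and GmCKX17. They were picked by their gene identifiers among the 66184 genes on the array, each with 1 probe set, and no measured value entered the rule. The names skip numbers, so they are not the whole family. The study also listed all of them as altered at least 2-fold by drought in leaves of the earlier V6 stage from other plants. On its V6 arrays GmCKX12 and GmCKX14 were higher in drought and the others lower. It reported the same genes at R2 as well, by array and by qRT-PCR. Its R2 array values come from the same arrays as those used here. The qRT-PCR values were taken from an earlier report. By qRT-PCR at R2, GmCKX14 was higher in drought and the others, GmCKX01, GmCKX02 and GmCKX15 included, were lower. The choice was thus not independent of a drought response. Drought-stressed and well-watered plants of cultivar Williams 82 were compared on Affymetrix Soybean Gene 1.0 ST arrays, both sampled at R2 (full bloom) from the third trifoliate leaf counted from the shoot. Drought-stressed plants, numbered 11, 12 and 13, had received no water for 5 days from the start of flowering. Well-watered plants, numbered 1, 3 and 4, were watered as usual. Pots held 3 plants each. It is not stated if the plants within a treatment came from 1 pot, in which case pot and treatment cannot be told apart and the p-values would cover only differences among plants.

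Cytokinins are adenine-derived hormones that promote cell division and keep leaves green. Cytokinin oxidases/dehydrogenases break them down irreversibly by removing the side chain, and so set, together with the enzymes of synthesis, how much active hormone a tissue holds. In Arabidopsis the enzymes differ in where they act. CKX7 lacks a signal peptide and works in the cytosol, whereas CKX1 and CKX6 enter the secretory pathway. By the similarity that the study gives, GmCKX01 and GmCKX02 are related to Arabidopsis CKX1, GmCKX12, GmCKX13 and GmCKX14 to CKX6, and GmCKX15 and GmCKX17 to CKX7.

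All values are on the log2 scale and centred for each gene on its median over the 6 arrays, and are called centred log2 values below. The level of one gene can therefore not be set against that of another, the summed expression of the family cannot be given, and the leaf identity of the samples cannot be checked from marker levels. With 6 arrays the 2 middle values of a gene are mirror images around 0, which is a property of the centring. Array medians over all probe sets lay between -0.0046 and 0.035 in drought and between -0.11 and 0.13 in well-watered plants. Among arrays, that of well-watered plant 1 was the one on which most probe sets stood alone at the top: 22 probe sets were at least 2 log2 units above all other arrays there, against 0 to 4 on each of the others.

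Expression of several GmCKX genes was lower in drought-stressed than in well-watered leaves, and that of a single one was higher. A gene was called where it differed by 2-fold or more with an adjusted p (limma, Benjamini-Hochberg over 66184 probe sets) under 0.05. By this rule 3 of the 7 genes were lower in drought-stressed leaves, namely GmCKX12, GmCKX13 and GmCKX17, and 1 was higher, GmCKX14. By the same criteria 4.63% of all probe sets were lower and 4.98% were higher. GmCKX15 passed the adjusted p but was lower by less than 2-fold, which makes 4 lower genes and 1 higher gene by the adjusted p alone, where 9.95% and 9.96% of all probe sets passed. GmCKX01 and GmCKX02 did not pass. The median log2 fold change was -1.24 over the 7 genes and 0.02 over all probe sets. The 3 drought values lay wholly below the 3 well-watered values for 5 of the genes and wholly above for 1, as they did for 17.4% and 18.6% of all probe sets (36.0% in either direction). As whole leaves were sampled, fewer cells of a type and less RNA per cell cannot be told apart. The plot of all values by array shows these groups beside each other.

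**Figure D1:**
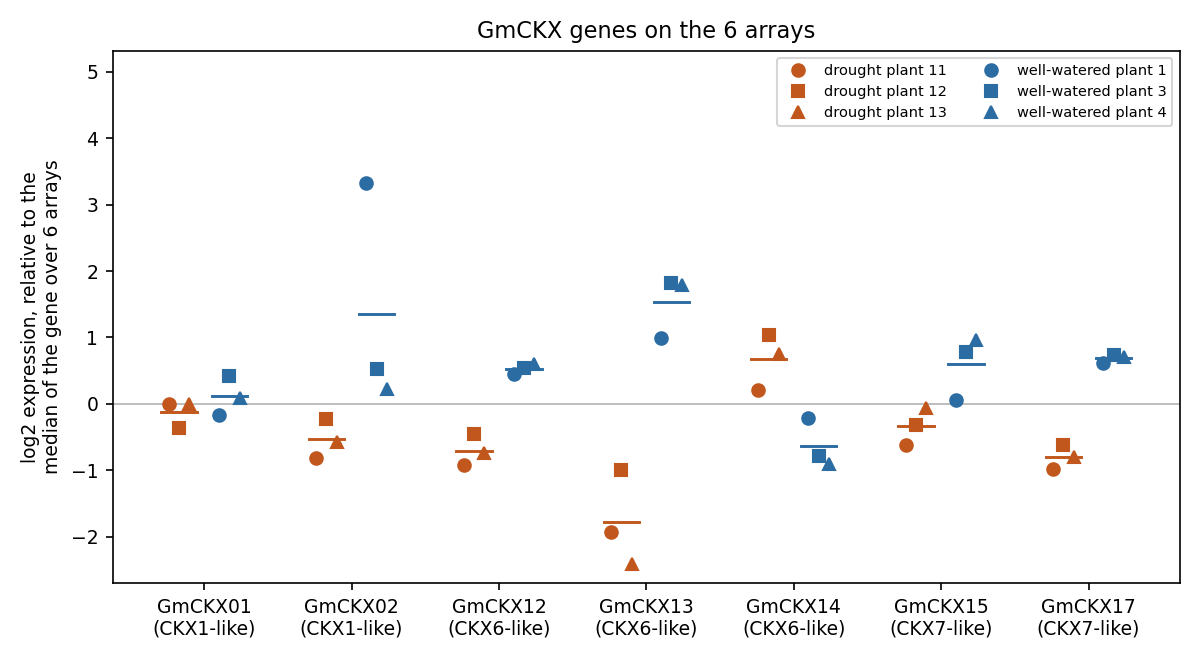
Centred log2 expression of the 7 GmCKX genes on each array, with drought plants (orange) left of well-watered plants (blue), a symbol per plant and a line at each group mean. Only GmCKX14 had all drought values above the well-watered values, GmCKX01 was the single gene whose groups overlapped, and GmCKX02 of well-watered plant 1 stood alone at 3.33.

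The CKX6-like genes held both the largest fall and the only rise. GmCKX13 (Glyma11g20860, chromosome 11) had centred log2 values of -1.93, -0.99 and -2.41 in drought plants 11, 12 and 13, against 0.99, 1.83 and 1.78 in well-watered plants 1, 3 and 4. Its groups were 1.98 log2 units apart at their closest, the widest gap of the 7 genes. Each drought plant had little of the well-watered expression left, at 9.05%, 17.4% and 6.49% of the well-watered mean (geometric mean of 3 arrays). The log2 fold change of -3.31 ± 0.35 (SE, n = 3 arrays a group) equals a 9.93-fold fall, with a 95% confidence interval of 5.88% to 17.25% of the well-watered level and an adjusted p of 0.000132 (limma). This fall ranked 69th from the largest among all probe sets. The plants of a group nevertheless differed in GmCKX13 more than in most genes, with a residual SD of 0.61, larger than that of 98.6% of probe sets.

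GmCKX12 (Glyma09g35950, chromosome 9) fell as well, by less and more evenly. Its centred log2 values were -0.91, -0.45 and -0.75 in drought plants 11, 12 and 13, against 0.45, 0.53 and 0.61 in well-watered plants 1, 3 and 4. The well-watered plants lay within 0.15 log2 units of each other. Drought minus well-watered was -1.24 ± 0.18 log2 units (SE, n = 3 arrays a group; adjusted p = 0.000806, limma), which leaves 42.5% of the well-watered level, with a 95% interval of 32.4% to 55.7%. As the interval reaches above 50%, which is a 2-fold fall, the size relative to that criterion is not settled.

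GmCKX14 (Glyma12g01390, chromosome 12) went the other way. It stood at 0.21, 1.04 and 0.75 in drought plants 11, 12 and 13, against -0.21, -0.78 and -0.90 in well-watered plants 1, 3 and 4 (centred log2 values). All drought plants were above all well-watered plants, by at least 0.43 log2 units, and reached 180%, 319% and 260% of the well-watered mean. The log2 fold change of 1.30 ± 0.25 (SE, n = 3 arrays a group) is a 2.46-fold rise, with a 95% interval of 0.74 to 1.86 on the log2 scale and an adjusted p of 0.00487 (limma). As the interval, 166% to 364% of the well-watered level, reaches below a 2-fold rise, the size relative to that criterion is not settled. The methods' t-test, which takes the spread of each gene alone, did not call GmCKX14 (adjusted p = 0.0856). That test called GmCKX12, GmCKX13 and GmCKX17 lower and no member higher, and 3.08% of all probe sets lower and 3.50% higher.

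Both CKX7-like genes were lower in drought-stressed leaves, GmCKX17 clearly and GmCKX15 near the fold criterion. GmCKX17 (Glyma17g34330, chromosome 17) had centred log2 values of -0.98, -0.61 and -0.80 in drought plants 11, 12 and 13, against 0.61, 0.73 and 0.70 in well-watered plants 1, 3 and 4. It was the most evenly expressed of the 7 genes within groups, with a residual SD of 0.14 where the median over all probe sets was 0.24. The log2 fold change of -1.48 ± 0.17 (SE, n = 3 arrays a group; adjusted p = 0.0002, limma) was a 2.79-fold fall to 35.8% of the well-watered level (95% interval 27.7% to 46.3%). This interval lay wholly beyond a 2-fold fall, as did that of GmCKX13.

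GmCKX15 (Glyma04g05840, chromosome 4) had centred log2 values of -0.62, -0.32 and -0.06 in drought plants 11, 12 and 13, against 0.06, 0.78 and 0.96 in well-watered plants 1, 3 and 4. The groups did not overlap, but the gap between them was only 0.12 log2 units, between drought plant 13 and well-watered plant 1. Drought minus well-watered was -0.93 ± 0.25 on the log2 scale (SE, n = 3 arrays a group; adjusted p = 0.0251, limma), or 52.3% of the well-watered level. It was called when well-watered plant 1 was left out, at -1.20, or drought plant 13, at -1.07, and likewise with quantile normalization and with array weights. The adjusted p itself was no longer under 0.05 without drought plant 11 (0.0983), drought plant 12 (0.0711), well-watered plant 3 (0.0785) or well-watered plant 4 (0.0977), nor with the methods' t-test (0.16). Both criteria thus depended on single plants, whereas the direction was lower in every setting that could change it.

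Neither CKX1-like gene passed the test, the one with a small difference and the other with a large spread. GmCKX01 (Glyma19g31620, chromosome 19) stood at -0.003, -0.36 and 0.003 in drought plants 11, 12 and 13, against -0.16, 0.43 and 0.09 in well-watered plants 1, 3 and 4 (centred log2 values). The groups overlapped, with well-watered plant 1 below the drought plants 11 and 13. Its log2 fold change was -0.24 ± 0.20 (SE, n = 3 arrays a group, adjusted p = 0.502, limma). For the array values, the 95% interval of -0.68 to 0.21 leaves out a 2-fold change in either direction. By qRT-PCR of the same stage, however, the study reported a larger fall of this gene, which lies outside that interval. As signal over background is not known on these arrays, the interval does not exclude a 2-fold fall of the transcript itself.

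GmCKX02 (Glyma03g28910, chromosome 3) had a larger difference and a far larger spread. Its centred log2 values were -0.81, -0.22 and -0.57 in drought plants 11, 12 and 13, against 3.33, 0.52 and 0.22 in well-watered plants 1, 3 and 4. Well-watered plant 1 was 6.98-fold above the next highest array, and the residual SD of 1.23 was larger than that of 99.98% of all probe sets. The log2 fold change was -1.89 ± 0.65 (SE, n = 3 arrays a group; adjusted p = 0.0699, limma), with a 95% interval of 9.87% to 73.7% of the well-watered level. Without well-watered plant 1 it was -0.91 with an adjusted p of 0.0173, which passes the adjusted p but misses the 2-fold criterion. With array weights it was -1.07 (adjusted p = 0.114) and was not called. It was called without well-watered plant 4, at -2.46 (adjusted p = 0.0314), and with quantile normalization, at -1.79 (adjusted p = 0.0466). All drought plants were still below all well-watered plants, by at least 0.44 log2 units. The intervals of the 7 genes are set beside each other in the plot of responses.

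**Figure D2:**
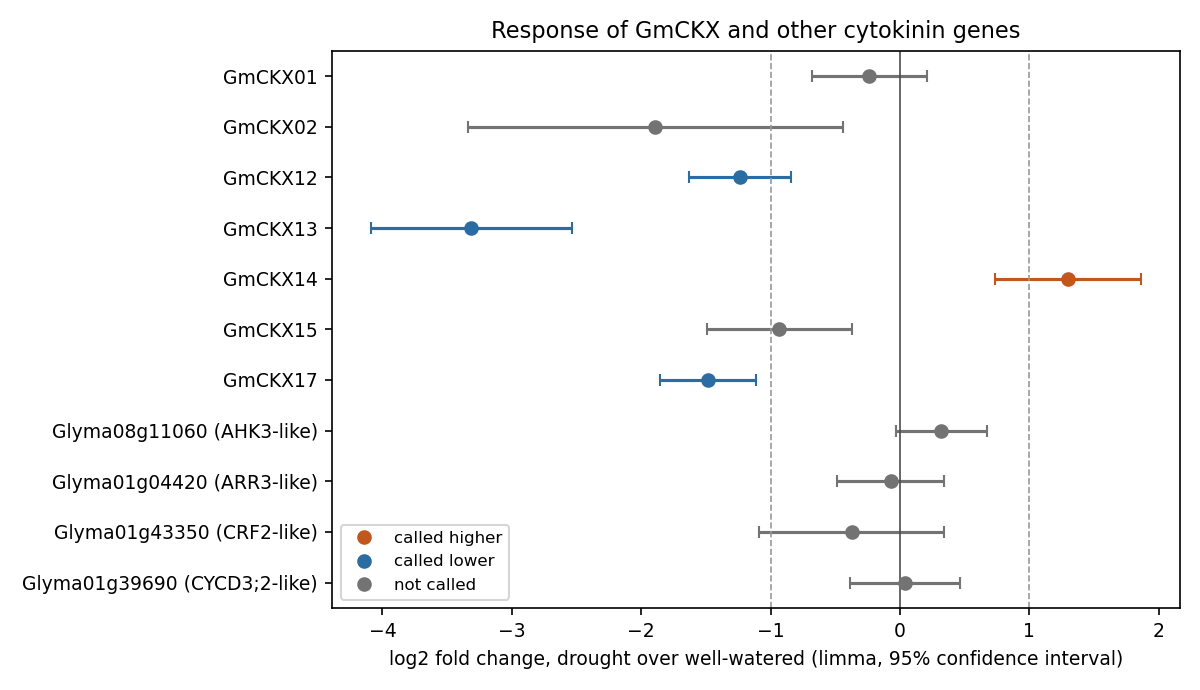
Log2 fold change of the 7 GmCKX genes and of 4 other genes of cytokinin signalling and response, drought over well-watered, with 95% confidence intervals from limma and dashed lines at a 2-fold change. The intervals of GmCKX13 and GmCKX17 lie wholly beyond a 2-fold fall, that of GmCKX02 is the widest, and the 4 other genes lie between -0.37 and 0.32.

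Genes related to the same Arabidopsis enzyme were compared directly, by the difference between their centred log2 values on the same array. There were 5 such pairs, and with 3 plants against 3 the exact permutation test cannot give a p below 0.1. The pairs among the CKX6-like genes are not independent. GmCKX14 minus GmCKX13 equals GmCKX14 minus GmCKX12 plus GmCKX12 minus GmCKX13. The CKX6-like genes had responses of opposite direction or unequal size. GmCKX14 minus GmCKX13 was 2.15, 2.04 and 3.16 in drought plants 11, 12 and 13, against -1.21, -2.61 and -2.68 in well-watered plants 1, 3 and 4. The expression of GmCKX14 relative to GmCKX13 was thus 24.5-fold higher in drought plants (difference of log2 fold changes 4.61 ± 0.60, SE, n = 3 arrays a group), with no overlap and an exact two-sided permutation p of 0.1, or 0.125 adjusted over the 5 pairs.

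GmCKX14 stood apart from GmCKX12 in the same way. GmCKX14 minus GmCKX12 was 1.13, 1.50 and 1.49 in drought plants 11, 12 and 13, against -0.67, -1.31 and -1.51 in well-watered plants 1, 3 and 4. The difference of log2 fold changes was 2.54 ± 0.28 (SE, n = 3 arrays a group), which is 5.80-fold (exact permutation p = 0.1, adjusted p = 0.125). GmCKX12 and GmCKX13 fell together but by unequal amounts. GmCKX12 minus GmCKX13 was 1.02, 0.54 and 1.67 in drought plants, against -0.54, -1.29 and -1.18 in well-watered plants, so that the fall of GmCKX13 was 4.22-fold the larger (difference 2.08 ± 0.40, SE, n = 3 arrays a group; exact permutation p = 0.1, adjusted p = 0.125).

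The CKX7-like genes differed far less. GmCKX15 minus GmCKX17 was 0.36, 0.29 and 0.74 in drought plants 11, 12 and 13, against -0.55, 0.05 and 0.25 in well-watered plants 1, 3 and 4. The difference of 0.55 ± 0.28 on the log2 scale (SE, n = 3 arrays a group; exact permutation p = 0.1, adjusted p = 0.125) came with drought plants narrowly above well-watered plants, and it was 0.31 without well-watered plant 1. For the CKX1-like genes, GmCKX02 minus GmCKX01 was -0.81, 0.14 and -0.58 in drought plants, against 3.49, 0.10 and 0.13 in well-watered plants. These groups overlapped, the difference was -1.65 ± 1.16 (SE, n = 3 arrays a group; exact permutation p = 0.3, adjusted p = 0.3), and without well-watered plant 1 it was -0.53.

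**Figure D3:**
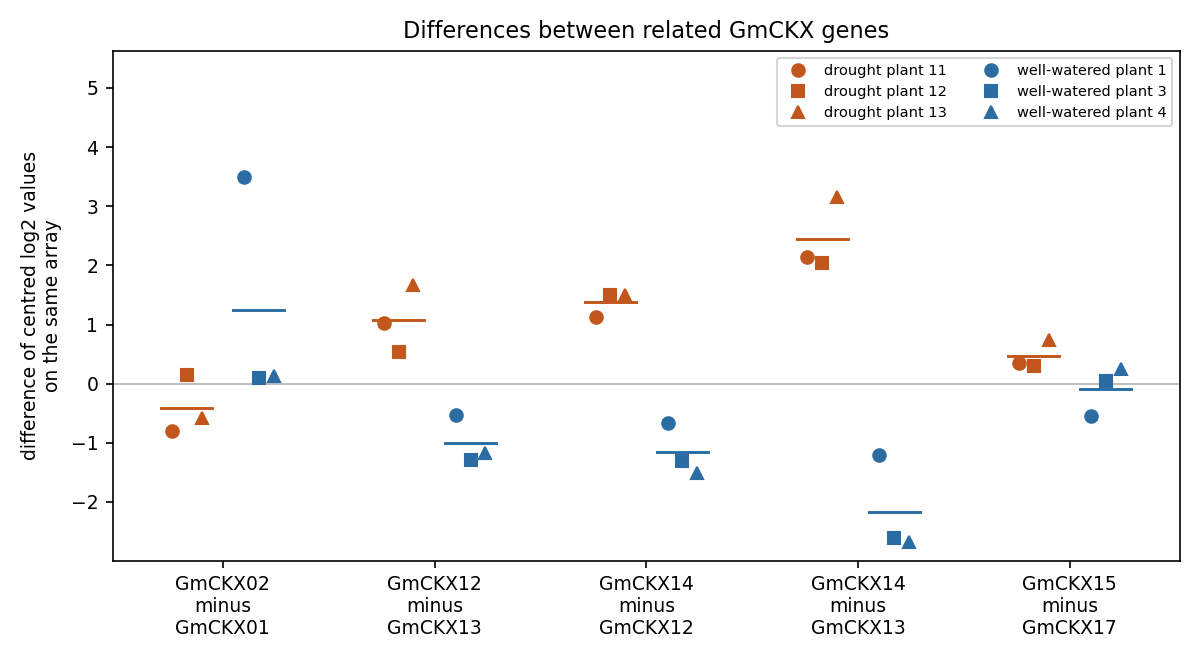
Difference between the centred log2 values of related GmCKX genes on the same array, with drought plants (orange) left of well-watered plants (blue) and a line at each group mean. The 3 pairs among the CKX6-like genes have drought values of 0.54 to 3.16 and well-watered values of -0.54 to -2.68, whereas GmCKX02 minus GmCKX01 overlaps between the groups.

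The plants of a group were not alike across the 7 genes. Among drought plants, plant 12 had the highest value of 5 genes (GmCKX02, GmCKX12, GmCKX13, GmCKX14 and GmCKX17) and plant 11 the lowest value of 5 (GmCKX02, GmCKX12, GmCKX14, GmCKX15 and GmCKX17). The share of all probe sets with such an order was not computed. Drought plants 11, 12 and 13 were the closest to the well-watered values for 1, 4 and 2 genes. Over all called probe sets these plants were the closest for 45.9%, 31.9% and 22.2%. The 7 genes include some that were not called. Among well-watered plants, plant 1 was the closest to the drought values for 6 of the 7 genes, all but GmCKX02, whereas it was the closest for 33.6% of all called probe sets. The same plant had the exceptionally high value of GmCKX02. On the values as deposited, its array thus stood at an end of the well-watered group in all 7 genes. The array medians of well-watered plants 1, 3 and 4 were -0.11, 0.13 and -0.03. These medians lay wider apart than the well-watered values of GmCKX12 (range 0.15) and GmCKX17 (range 0.12). With array medians subtracted, plant 1 lay between plants 3 and 4 in both genes. What well-watered plant 1 contributes to the responses is given by the values without it. The log2 fold change was then -3.58 for GmCKX13, -1.27 for GmCKX12, 1.51 for GmCKX14 and -1.52 for GmCKX17, and each was still called.

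**Figure D4:**
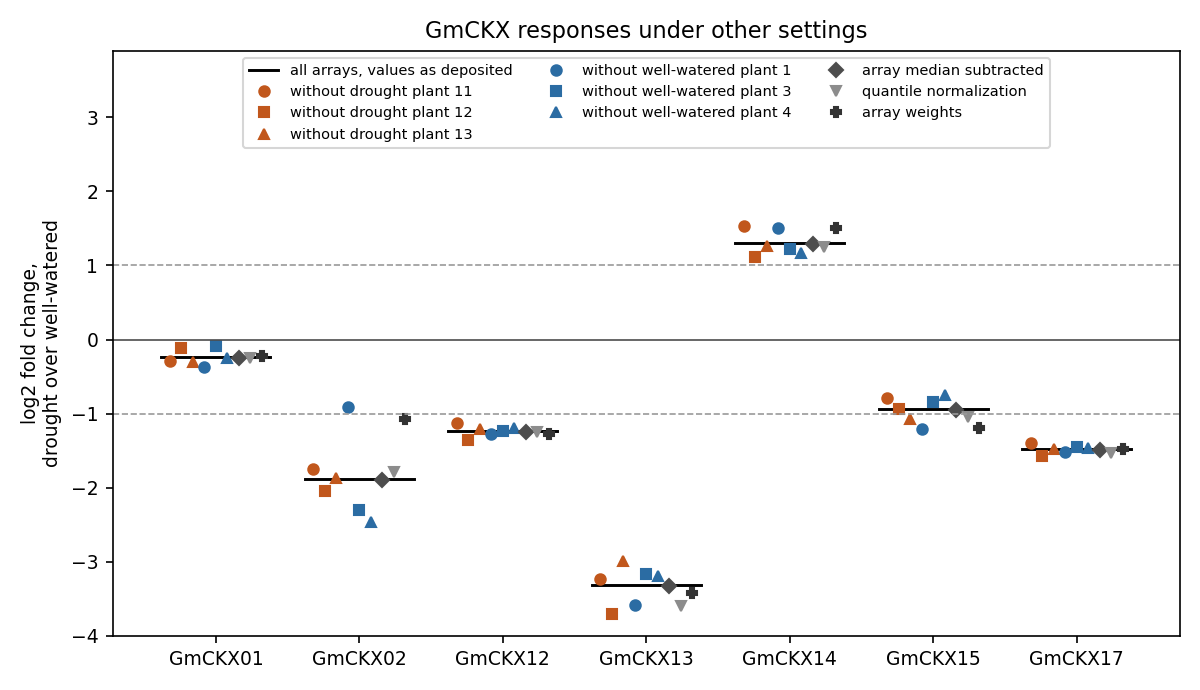
Log2 fold change of each GmCKX gene, drought over well-watered, with all arrays (black line), with each plant left out in turn and with other scalings or array weights, and dashed lines at a 2-fold change. The values stay on one side of 0 for every gene; those of GmCKX02 range from -2.46 to -0.91 and those of GmCKX15 from -1.20 to -0.75.

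None of the 4 other cytokinin genes at hand was called in either direction, by limma or by the methods' t-test, and none had an unadjusted p under 0.05 in limma. These are genes for hormone signalling and response, 1 from the study's cytokinin list and 3 found in descriptions that cover part of chromosome 1 only, so receptors, response regulators and enzymes of synthesis elsewhere are not analysed here. Glyma08g11060 is related to AHK3, a membrane receptor of cytokinin that delays leaf senescence in Arabidopsis. It stood at 0.31, 0.12 and 0.13 in drought plants 11, 12 and 13, against -0.13, -0.15 and -0.12 in well-watered plants 1, 3 and 4 (centred log2 values). The drought values lay above the well-watered values, but its log2 fold change was only 0.32 ± 0.16 (SE, n = 3 arrays a group; adjusted p = 0.202, limma), and the 95% interval of -0.03 to 0.67 leaves out a 2-fold rise. By the methods' t-test its unadjusted p was 0.00715 and its adjusted p was 0.0544.

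Glyma01g43350, related to the cytokinin response factor CRF2, a transcription factor of the AP2/ERF class, varied within the well-watered group. Its centred log2 values were 0.10, -0.37 and -0.10 in drought plants 11, 12 and 13, against -0.60, 0.70 and 0.66 in well-watered plants 1, 3 and 4. The log2 fold change was -0.37 ± 0.32 (SE, n = 3 arrays a group; adjusted p = 0.505, limma), and without well-watered plant 1 it was -0.80 with an adjusted p of 0.0181, below the 2-fold criterion. Glyma01g04420, very weakly similar to ARR3, a type-A response regulator that dampens cytokinin signalling, differed by -0.07 ± 0.19 (log2 fold change, adjusted p = 0.857, limma). Glyma01g39690, related to the D-type cyclin CYCD3;2, of a class that links cytokinin to cell division in Arabidopsis, differed by 0.04 ± 0.19 (log2 fold change, adjusted p = 0.925, limma). For both, the groups overlapped and the sign changed between settings.

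To see whether the responses extended along the chromosome, the 3 genes on either side of each GmCKX gene in the order of the Glyma1 identifiers were examined. Of these 42 neighbours 3 were called higher and 4 were called lower, where 9.61% of all probe sets were called in either direction, and their median log2 fold change was -0.06. None of the 6 neighbours was called beside GmCKX13, GmCKX12 or GmCKX17. Beside GmCKX12, however, some passed the adjusted p (limma) at less than 2-fold. The genes 3 places before, directly before and directly after it had log2 fold changes of 0.67, 0.63 and 0.97. The gene 3 places after it had -0.59. Over all probe sets 9.96% passed the adjusted p as higher and 9.95% as lower. The genes next to GmCKX13 on either side had log2 fold changes of -0.05 and -0.30, so the largest fall of the 7 genes stood alone among its neighbours. Next to GmCKX17, the neighbour at 2 places before it had a log2 fold change of -1.21 but an adjusted p of 0.0533 (limma). The gene directly before GmCKX17 passed the adjusted p (0.0214, limma) but not the fold criterion, at -0.75.

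The called neighbours lay beside the other genes. The gene directly after GmCKX01 (Glyma19g31630) was higher by 1.59 ± 0.19 log2 units (SE, n = 3 arrays a group; adjusted p = 0.000252, limma), and that directly after GmCKX02 (Glyma03g28920) rose by 1.07 ± 0.19 (adjusted p = 0.00321). The log2 fold changes of GmCKX01 and GmCKX02 themselves were negative, but neither gene passed the adjusted p. The 2 genes that lie 2 and 3 places before GmCKX01 were lower, at -1.16 and -1.17, the second of them with 1.33 in well-watered plant 1 against 0.19 and 0.27 in plants 3 and 4. Leaving out well-watered plant 1 gave 3 neighbours called lower. Beside GmCKX14, the third gene after it was higher, by 2.38 ± 0.25, while the 5 others had log2 fold changes between -0.24 and 0.34. Near GmCKX15, the second gene after it (Glyma04g05860) fell by 2.36 ± 0.17 (adjusted p = 1.36e-05) and the third had a log2 fold change of -1.42 ± 0.21, both larger falls than that of GmCKX15, while the gene between, directly after GmCKX15, stood at -0.14. No gene names come with these identifiers in the files.

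**Figure D5:**
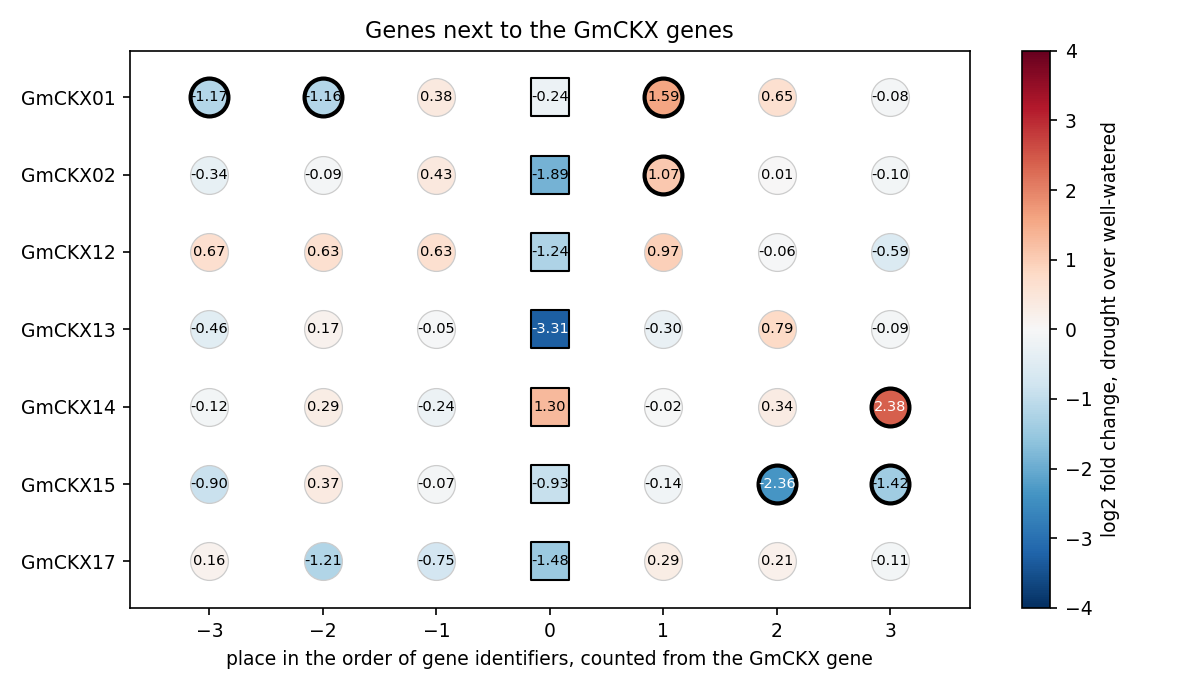
Log2 fold change, drought over well-watered, of the GmCKX genes (squares, place 0) and of the 3 genes on either side in the order of gene identifiers (circles), with called neighbours outlined in black. The values of GmCKX12, GmCKX13 and GmCKX17 are flanked by no called gene, and the gene directly after GmCKX01 and that after GmCKX02 are both higher in drought plants.

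Likeness between genes was measured as the root mean square difference of the centred log2 values over the 6 arrays. Only 1 pair of GmCKX genes was close by this measure. GmCKX12 and GmCKX17, which are related to different Arabidopsis enzymes, differed by 0.13 log2 units, and each was among the closest probe sets of the other, GmCKX17 at place 50 for GmCKX12 and GmCKX12 at place 51 for GmCKX17. No other GmCKX gene was among the 100 closest of another. The closest probe set to GmCKX14 was Glyma01g36960, similar to the Arabidopsis gene ERD7, which is named for its early response to dehydration, at a distance of 0.08 and with a log2 fold change of 1.35. Its centred log2 values were 0.29, 0.95 and 0.84 in drought plants 11, 12 and 13, against -0.29, -0.71 and -0.97 in well-watered plants 1, 3 and 4. The closest to GmCKX13 was Glyma08g46520, which the files do not name, at 0.17 and with a log2 fold change of -3.58. Both probe sets were picked for their like values, so their log2 fold changes follow from the choice. A shared regulation was not tested.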

How the data were processed

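Total RNA of 6 leaves, 3 per treatment, was hybridised to 1 array each. The authors summarised probes per gene by RMA in Affymetrix Expression Console without normalization, then scaled each array to its 75th percentile in GeneSpring. The deposited log2 values are in addition centred on the median of each probe set (largest absolute row median 5e-07, read from the values), so absolute signal is lost and signal over background is not known. RMA and Expression Console are also in the submitters' processing notes, their versions not given in the sources used here. A second deposited table holds the authors' fold changes and p-values of the same comparison, of which only the gene identifiers were used.

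Values were used as deposited. The 2 treatments were compared in limma 3.58.1 under R 4.3.3, with no other term and Benjamini-Hochberg adjustment over all probe sets. The test was tested on simulated data. Pairs of genes were compared by exact two-sided permutation of the 6 arrays. Members, lists and pairs were chosen with earlier results of these data known. The text names all 7 members, the 4 other cytokinin genes, the called neighbours (some by place only) and the closest probe set to the members with the largest rise and fall. Alternatives were leaving out each array, the methods' t-test, array weights, subtraction of array medians, quantile normalization and dropping the fold criterion. A filter on dim probe sets and an intensity trend need absolute signal and were not run. None of the array's identifiers matched the RefSeq table of Glycine_max_v4.0, so no coordinates or sequences are given. Identical values in several probe sets occurred for 214 probe sets, none of them a member.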

Additional observations from a re-analysis of the deposited data

How the results depend on the processing

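Over 77 values of the 7 GmCKX genes under the alternatives, 69 kept their side of the threshold, 1 was no longer past it, 7 were newly past it and none changed sign. The methods' t-test and dropping the fold criterion leave the log2 fold change as it is, so the sign could not change there. GmCKX15 without the fold criterion is among the newly past values, and there the threshold itself was loosened. The number of GmCKX genes called lower was 5 with quantile normalization, against 3 with the values as deposited, and 3 to 4 when each array was left out in turn. The number called higher was 0 with the methods' t-test, against 1. Among neighbours, 7 were higher without the fold criterion, against 3. The differences between related genes kept their sign in all 40 values. Those with array medians subtracted could not differ, because the median cancels in a difference between 2 genes on the same array. The small log2 fold changes of 2 other cytokinin genes changed sign. For Glyma01g04420 it was 0.011 with array weights, and from -0.23 to 0.035 when each array was left out, above 0 only without drought plant 13. For Glyma01g39690 it was -0.082 with array weights, -0.0034 with quantile normalization, and from -0.11 to 0.17 when each array was left out, below 0 without drought plant 13 (-0.11) and without well-watered plant 1 (-0.043). The cause was not tested. No paired analysis was possible because no number occurs in both groups. The number of arrays limits the precision, and signal over background is unknown.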
